A study of Mus musculus with 10 samples.

Results

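The Wnt group examined here holds the secreted Wnt ligands, their Frizzled and LRP receptors, the secreted antagonists, the R-spondins with their Lgr receptors, and the proteins that carry the signal to the nucleus. Its members were picked by symbol: every row named Wnt, Fzd, Dkk, Sfrp, Rspo or Lgr with a number, and Lrp5, Lrp6, Axin1, Axin2, Apc, Ctnnb1, Gsk3b, Lef1, Tcf7, Tcf7l1, Tcf7l2, Znrf3, Rnf43 and Sox9. This gave 58 genes of the 54343 in the deposited table. Levels are in FPKM, which divides the fragments of a gene by its length and by the size of the library, from polyA-selected, strand-specific libraries of cultured cells.

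The line MC38.T4 (5 libraries) carries the genotype label low mesothelin expression. It goes back to MC38 cells transfected with a human mesothelin plasmid, which were sorted for human mesothelin as single clones (MC38.huMSLN.34), grown, and implanted in C57/BL6 mice. Tumour cells were then taken back into culture and passaged, and the line was started from 1 clone of low mesothelin among them. It was set against MC38 (5 libraries), the parental mouse line as bought from the vendor, labelled wild type. Both were grown in the same medium and neither was given a further treatment. Transfection, growth in a mouse, passage and cloning cannot be told apart as sources of a difference between the lines. Whether the 5 libraries of each line are from different cultures is not stated, and p-values therefore reflect the spread among these libraries alone, which may be technical.

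In the canonical branch of the pathway, a Wnt ligand joins a Frizzled receptor to LRP5 or LRP6 and stops the destruction complex of Axin, APC and GSK3 from marking beta-catenin for breakdown. Beta-catenin then enters the nucleus and binds TCF/LEF factors at target genes, among them the feedback inhibitors Axin2, Znrf3 and Rnf43. In the intestine this branch keeps the stem cells of the crypt, which carry Lgr5, and its unrestrained activity is a hallmark of colon carcinoma. Other Wnt proteins, with Wnt5a as the best-known case, act mostly through branches that do not use beta-catenin.

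The tissue and design labels call the cells melanoma, while the treatment text and the library names call them colon cancer. Of 8 markers of intestinal epithelium none reached the level filter described below, and Cdx2 was at 0 in every library. Their summed level was 1.21 to 1.40 FPKM in MC38.T4 and 0.169 to 0.392 FPKM in MC38, of which Cdh1, a general epithelial marker, made up 1.10, 0.908, 0.984, 1.02 and 1.01 FPKM in the MC38.T4 libraries and 0.0293, 0.0259, 0.00840, 0.0193 and 0.0229 FPKM in the MC38 libraries. Of 7 melanocyte markers 1, Mitf, passed the filter, through MC38.T4 alone (1.74 FPKM in MC38.T4 and 0.781 FPKM in MC38), and Tyr was at 0 in every library. This list summed to 1.85 to 2.07 FPKM in MC38.T4 and 1.19 to 1.52 FPKM in MC38, and within it Pmel went the other way without overlap (0.178 FPKM in MC38.T4 and 0.522 FPKM in MC38). The FPKM of a library added up to 478019 to 484461 in MC38.T4 and to 442183 to 477015 in MC38, with MC38 replicate 1 lowest. Depth is unknown, since no read totals come with the values, and no counting error is attached to them. Correlations of log2 values over the tested genes were 0.993 to 0.998 within a line and 0.896 to 0.904 between the lines.

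A gene was tested where it reached 1 FPKM in at least 5 of the 10 libraries. Differences were taken on log2(FPKM + 1), as MC38.T4 minus MC38, a scale that understates the change of low genes. They were tested with limma and Benjamini-Hochberg adjustment over all 11110 tested genes. By this rule 25 of the 58 Wnt genes were tested and 33 were not. Of the 25, 10 were higher in MC38.T4 (Wnt5a, Wnt10a, Fzd1, Fzd2, Lrp5, Lrp6, Axin2, Ctnnb1, Tcf7l2 and Sox9) and 11 were lower (Wnt7b, Wnt9a, Fzd5, Fzd9, Dkk2, Lgr4, Znrf3, Axin1, Gsk3b, Lef1 and Tcf7l1). Fzd4, Fzd7, Apc and Tcf7 did not pass. With quantile normalization the split was 7 higher and 12 lower.

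These counts are close to those of the whole table. Among all tested genes 86.0% were called in either direction, 43.1% higher and 42.9% lower in MC38.T4, against 84.0%, 40.0% and 44.0% of the tested Wnt genes. The libraries of the lines did not overlap for 18 of the 25, beside 77.4% of all tested genes. The median log2 change was -0.08 over the 25 and 0.00 over all tested genes, and the median size of the change was 0.47 in both. A call with mean levels at least 2-fold apart was found for 10 of the 25, beside 23.1% of all tested genes. Of these 10, Wnt10a and Axin2 reached 1 FPKM only in MC38.T4 libraries and Fzd5 and Dkk2 only in MC38 libraries. They could thus be tested only because the lines differ. Wnt9a passed the filter mainly through MC38, with 1 FPKM reached in 5 MC38 libraries and 1 MC38.T4 library. For these reasons nothing is read from the share.

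**Figure D1:**
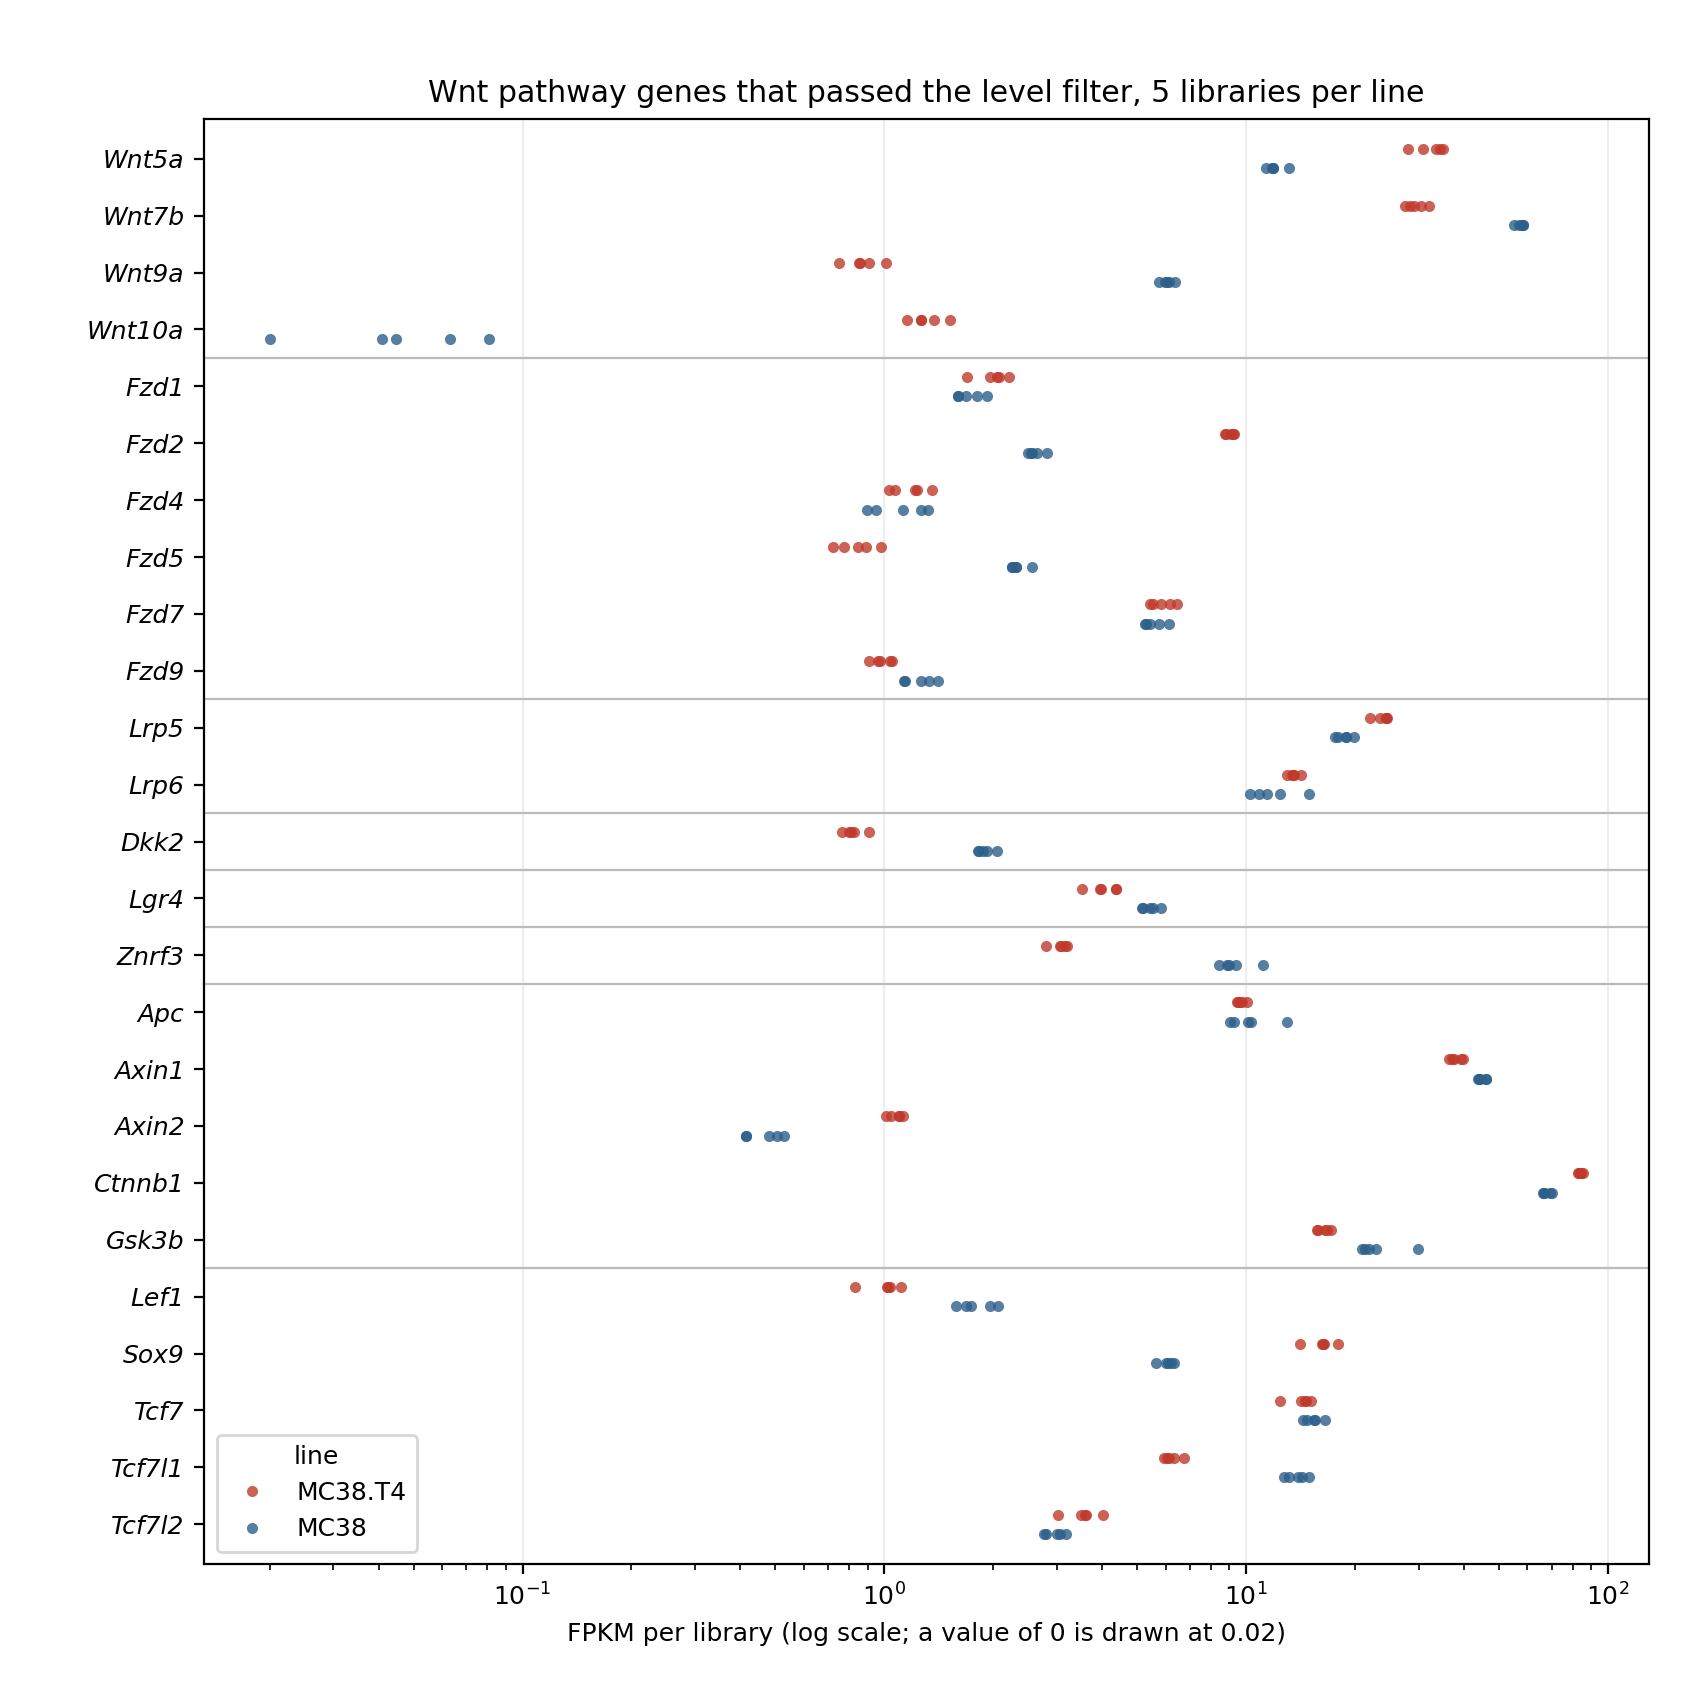
FPKM of the 25 tested Wnt genes on a log axis, with 1 point per library, MC38.T4 above MC38 in each row and lines between role groups. Wnt5a, Fzd2 and Sox9 lie to the right in MC38.T4 and Wnt7b, Wnt9a, Fzd5, Znrf3 and Tcf7l1 to the left. Fzd4, Fzd7, Apc and Tcf7 overlap, as do Fzd1, Lrp6 and Tcf7l2, which were called.

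The promoters of members that differed at least 2-fold are shown to give the sequence context of genes that moved together or apart. The RefSeq promoter table (build GRCm38.p6, matched by symbol; the submitters' processing notes name GRCm39) holds windows for 37 of the 58 members. Among the 10 members with a 2-fold call it holds those of Wnt9a, Fzd5, Tcf7l1 and Dkk2, which fell, and of Axin2, which rose. Each line gives the 250 bases before the start of the gene, 5′ to 3′ along the gene, with capitals marking GGGCGG on either strand, the GC box bound by Sp1-type factors.
Wnt9a, chr11:59306680-59306929, plus strand: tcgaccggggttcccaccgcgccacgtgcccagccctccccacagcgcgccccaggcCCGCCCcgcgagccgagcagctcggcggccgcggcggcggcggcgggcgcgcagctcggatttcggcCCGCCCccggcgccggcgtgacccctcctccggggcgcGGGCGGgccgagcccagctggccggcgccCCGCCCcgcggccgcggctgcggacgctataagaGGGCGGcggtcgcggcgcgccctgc
Fzd5, chr1:64737751-64738000, minus strand: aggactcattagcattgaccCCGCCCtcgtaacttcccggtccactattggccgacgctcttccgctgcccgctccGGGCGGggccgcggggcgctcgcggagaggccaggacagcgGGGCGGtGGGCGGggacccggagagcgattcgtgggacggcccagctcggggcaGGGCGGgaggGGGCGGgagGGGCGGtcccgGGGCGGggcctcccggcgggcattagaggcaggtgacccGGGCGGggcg
Tcf7l1, chr6:72789046-72789295, minus strand: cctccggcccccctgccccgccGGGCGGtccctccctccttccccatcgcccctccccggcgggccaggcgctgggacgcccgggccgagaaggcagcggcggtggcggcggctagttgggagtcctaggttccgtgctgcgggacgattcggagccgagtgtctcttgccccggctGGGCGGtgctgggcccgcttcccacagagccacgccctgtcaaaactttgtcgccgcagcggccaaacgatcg
Dkk2, chr3:132085042-132085291, plus strand: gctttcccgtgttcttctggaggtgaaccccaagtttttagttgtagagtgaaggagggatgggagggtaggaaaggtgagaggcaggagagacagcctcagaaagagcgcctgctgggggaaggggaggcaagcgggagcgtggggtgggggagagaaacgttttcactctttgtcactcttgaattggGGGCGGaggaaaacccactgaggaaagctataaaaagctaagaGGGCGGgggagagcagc
Axin2, chr11:108920099-108920348, plus strand: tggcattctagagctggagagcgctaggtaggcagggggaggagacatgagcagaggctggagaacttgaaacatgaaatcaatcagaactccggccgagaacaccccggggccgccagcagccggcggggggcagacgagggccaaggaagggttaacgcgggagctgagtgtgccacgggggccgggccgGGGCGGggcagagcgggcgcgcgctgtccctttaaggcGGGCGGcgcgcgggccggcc

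The GC box was present in all 5 windows, with 5 copies before Wnt9a, 9 before Fzd5 and 2 each before Tcf7l1, Dkk2 and Axin2. Over both strands it occurred in 32 of 47 windows of Wnt genes (68.1%), which cover 37 members, and in 32.7% of all 32851 windows in the table. The word holds only G and C, and the 5 windows had 55.6% (Dkk2) to 84.4% (Wnt9a) of these bases. The difference in share was not tested. The core words of the TCF/LEF motif, CTTTGAT and CTTTGAA, were in none of the 5 windows on either strand. At least 1 of these words was in 3 of 47 windows of Wnt genes (6.38%, before Dkk1, Wnt11 and Wnt5b) and in 7.48% of all windows. In Wnt genes no copy overlapped a GC box. These are matches of letters in a short window, for genes that fell and for the gene that rose alike.

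Wnt5a and Wnt7b supplied most of the ligand message in both lines, in different proportions. Wnt5a rose, Wnt7b and Wnt9a fell, and Wnt10a, low in both lines, rose. Wnt5a, a ligand of the branches that do not need beta-catenin, stood at 34.3, 33.4, 35.1, 28.1 and 30.9 FPKM in the MC38.T4 libraries and 13.1, 11.9, 11.9, 11.8 and 11.3 FPKM in the MC38 libraries. The lowest MC38.T4 library, replicate 4, was still more than double the highest MC38 library, and the mean was 2.70-fold higher in MC38.T4 (log2 change 1.36, SE 0.06, limma adjusted p = 6.91e-12). Wnt7b, a ligand that can act through beta-catenin, stood at 28.4, 29.2, 27.6, 32.1 and 30.5 FPKM in the MC38.T4 libraries and 56.8, 57.8, 58.4, 54.9 and 58.5 FPKM in the MC38 libraries. It was the highest Wnt ligand gene in every MC38 library and all MC38.T4 libraries lay below them, 1.94-fold lower on average (log2 change -0.93, SE 0.04, limma adjusted p = 7.77e-12).

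Wnt9a stood at 0.750, 0.849, 0.856, 1.01 and 0.910 FPKM in the MC38.T4 libraries and 6.35, 5.76, 6.06, 6.11 and 5.97 FPKM in the MC38 libraries. The mean was 6.91-fold lower in MC38.T4 (log2 change -1.91, SE 0.05, limma adjusted p = 1.68e-14), with no overlap. Wnt9a reached 1 FPKM in 5 MC38 libraries but in only 1 MC38.T4 library, so it passed the filter mainly through MC38. Wnt10a, a ligand known from skin and tooth development, had 1.52, 1.26, 1.26, 1.37 and 1.15 FPKM in the MC38.T4 libraries, against 0.0631, 0.0448, 0, 0.0810 and 0.0410 FPKM in the MC38 libraries. It was above 1 FPKM in every MC38.T4 library and below 0.1 FPKM in every MC38 library, 28.55-fold higher by the means (log2 change 1.14, SE 0.05, limma adjusted p = 1.01e-11). None of these 4 ligands overlapped, beside 77.4% of all tested genes without overlap. Each therefore had the smallest p that an exact two-sided permutation test of 5 against 5 libraries can give (0.00794). Any gene without overlap has this p, so it adds nothing to the separation. Wnt10a reached 1 FPKM in MC38.T4 libraries alone and so could be tested only because the lines differ.

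The summed level of the 19 Wnt ligand genes was 64.5 ± 1.04 FPKM in MC38.T4 and 75.6 ± 1.48 FPKM in MC38 (mean ± SD, n = 5 each). Wnt5a made up 44.6% to 54.0% of this sum in the MC38.T4 libraries and 14.9% to 17.1% in the MC38 libraries. Wnt7b made up 42.4% to 51.0% in MC38.T4 and 74.1% to 76.8% in MC38. Wnt9a made up 1.15% to 1.61% in MC38.T4 and 7.61% to 8.36% in MC38. The ratio of Wnt5a to Wnt7b lay between 0.874 and 1.27 in MC38.T4, with replicate 4 lowest, and between 0.194 and 0.231 in MC38. Because FPKM is scaled by length, these shares can be compared between genes.

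Wnt5a is also made by fibroblasts and pericytes, and markers of those cells were read in the same libraries. Of 9 such markers 5 were tested and all 5 were higher in MC38.T4 (Col1a2, Pdgfra, Pdgfrb, Dcn and Acta2), beside 43.1% of all tested genes. Col1a2, Pdgfrb and Acta2 reached 1 FPKM in MC38.T4 alone and so had to differ, which leaves Pdgfra (24.5 FPKM in MC38.T4 and 12.4 FPKM in MC38) and Dcn (58.1 FPKM in MC38.T4 and 16.8 FPKM in MC38). The list of 9 summed to 102.9 to 112.4 FPKM in MC38.T4 and 28.2 to 31.6 FPKM in MC38. The other 4, Col1a1, Lum, Rgs5 and Fap, lay below the filter in both lines, with means of at most 0.405 FPKM. Col1a1 (0.175 FPKM in MC38.T4 and 0.0533 FPKM in MC38) and Rgs5 (0.405 FPKM in MC38.T4 and 0.00526 FPKM in MC38) were higher in MC38.T4 without overlap. Fap was lower in MC38.T4 without overlap (0.00488 FPKM in MC38.T4 and 0.0299 FPKM in MC38), and the libraries of Lum overlapped. The leukocyte markers Cd3e, Cd8a and Adgre1 were at 0 in every library, and their list of 8 summed to 0.244 to 0.324 FPKM in MC38.T4 and 0.555 to 1.02 FPKM in MC38. The 5 endothelial markers summed to 0.889 to 1.03 FPKM in MC38.T4 and 0.388 to 0.517 FPKM in MC38. The part of other cell types in the Wnt values was not tested, and in bulk RNA fewer cells of a type and less RNA per cell cannot be told apart.

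Of the 15 other Wnt ligand genes none reached the filter, and the highest mean was that of Wnt2b, at 0.104 FPKM in MC38.T4 and 0.134 FPKM in MC38, with overlapping libraries. Wnt6 had 0.149, 0.154, 0.108, 0.129 and 0.113 FPKM in the MC38.T4 libraries and 0.0626, 0.0802, 0.0647, 0.0551 and 0.135 FPKM in the MC38 libraries, which overlap in MC38 replicate 5. Wnt10b had 0.0667, 0.0365, 0.0551, 0.0493 and 0.0564 FPKM in MC38.T4, while in MC38 it was at 0 in 4 libraries and at 0.0099 FPKM in replicate 3. Wnt2, Wnt3a and Wnt11 were at 0 in all 10 libraries.

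Several Wnt genes are next to each other in the genome, and the values of such neighbours can be set side by side. In the RefSeq gene order Wnt3a and Wnt9a are adjacent: Wnt9a was expressed in both lines and Wnt3a was at 0. Wnt6 and Wnt10a are separated by 1 predicted gene of the table, and Wnt10a but not Wnt6 reached 1 FPKM in MC38.T4. Wnt1 and Wnt10b, and Wnt3 and Wnt9b, are adjacent pairs in which no gene reached 0.1 FPKM in any library. Among the 6 nearest tested neighbours of each member with a 2-fold call, at most 2 changed in the member's direction by at least 1 on the log2 scale. That number was reached by Tcf7l1, with Tgoln1 and Kcmf1. Wnt9a had none such. Near it Arf1, Mrpl55 and Zfp867 fell by smaller amounts, while Snap47 (log2 change 0.82), 2310033P09Rik (0.42) and Jmjd4 (0.18) rose. Among all tested genes 42.9% were called lower and 43.1% higher.

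Among the Frizzled receptors, which bind the Wnt lipid group with their extracellular domain, Fzd2 rose and Fzd5 fell while Fzd7 was at a like level in both lines. Fzd2, a receptor known to bind Wnt5a, stood at 8.79, 9.11, 8.76, 9.28 and 9.18 FPKM in the MC38.T4 libraries and 2.65, 2.83, 2.56, 2.55 and 2.50 FPKM in the MC38 libraries. Every MC38.T4 library was above 8 FPKM and every MC38 library below 3 FPKM, 3.45-fold higher on average (log2 change 1.47, SE 0.04, limma adjusted p = 4.8e-14). Fzd5 stood at 0.846, 0.776, 0.889, 0.981 and 0.721 FPKM in the MC38.T4 libraries and 2.56, 2.26, 2.31, 2.26 and 2.31 FPKM in the MC38 libraries. It was 2.78-fold lower in MC38.T4 with no overlap (log2 change -0.86, SE 0.05, limma adjusted p = 2.61e-10), and MC38 replicate 1 was apart from the 4 other MC38 libraries. Fzd5 reached 1 FPKM in MC38 libraries alone and so could be tested only because the lines differ.

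Fzd7, the highest Frizzled gene of MC38, stood at 5.83, 6.44, 5.53, 5.44 and 6.16 FPKM in the MC38.T4 libraries and 5.74, 5.31, 5.43, 5.27 and 6.12 FPKM in the MC38 libraries. Its groups overlapped and its difference was small (log2 change 0.07, SE 0.05, limma adjusted p = 0.244), as was that of Fzd4, at 1.18 ± 0.132 FPKM in MC38.T4 and 1.11 ± 0.186 FPKM in MC38 (log2 change 0.05, SE 0.06, limma adjusted p = 0.47, SD, n = 5 each). With quantile normalization both turned slightly negative, at -0.02 for Fzd7 and -0.08 for Fzd4, neither past the threshold. Fzd9 was lower in MC38.T4, at 0.986 ± 0.0586 FPKM in MC38.T4 and 1.25 ± 0.117 FPKM in MC38 (log2 change -0.18, SE 0.05, limma adjusted p = 0.00258). It reached 1 FPKM in 5 MC38 libraries and in 2 MC38.T4 libraries, and so passed the filter mainly through MC38. Fzd1 was called higher, at 2.00 ± 0.193 FPKM in MC38.T4 and 1.72 ± 0.139 FPKM in MC38 (log2 change 0.14, SE 0.06, limma adjusted p = 0.0293), but its libraries overlapped and the call was lost in 10 of 17 alternatives, with limma adjusted p between 0.00636 and 0.595. Among these were the fits without MC38.T4 replicate 2 (0.0814), 4 (0.0546) or 5 (0.0628) and without MC38 replicate 2 (0.0652), 4 (0.0542) or 5 (0.0692). Fzd8 lay below the filter at 0.248 FPKM in MC38.T4 and 0.308 FPKM in MC38, Fzd6 was at 0 in all but 2 MC38 libraries, and Fzd3 and Fzd10 were at 0 throughout.

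The summed level of the 10 Frizzled genes was 20.2 ± 0.703 FPKM in MC38.T4 and 14.9 ± 0.371 FPKM in MC38 (mean ± SD, n = 5 each). Fzd2 took 43.1% to 45.8% of it in MC38.T4 and 16.8% to 19.4% in MC38. Fzd5 took 3.54% to 4.84% in MC38.T4 and 15.3% to 16.5% in MC38. The ratio of Fzd2 to Fzd7 was 1.42 to 1.70 in MC38.T4 and 0.408 to 0.532 in MC38, so that the leading Frizzled message was Fzd2 in the clone and Fzd7 in its parent.

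**Figure D2:**
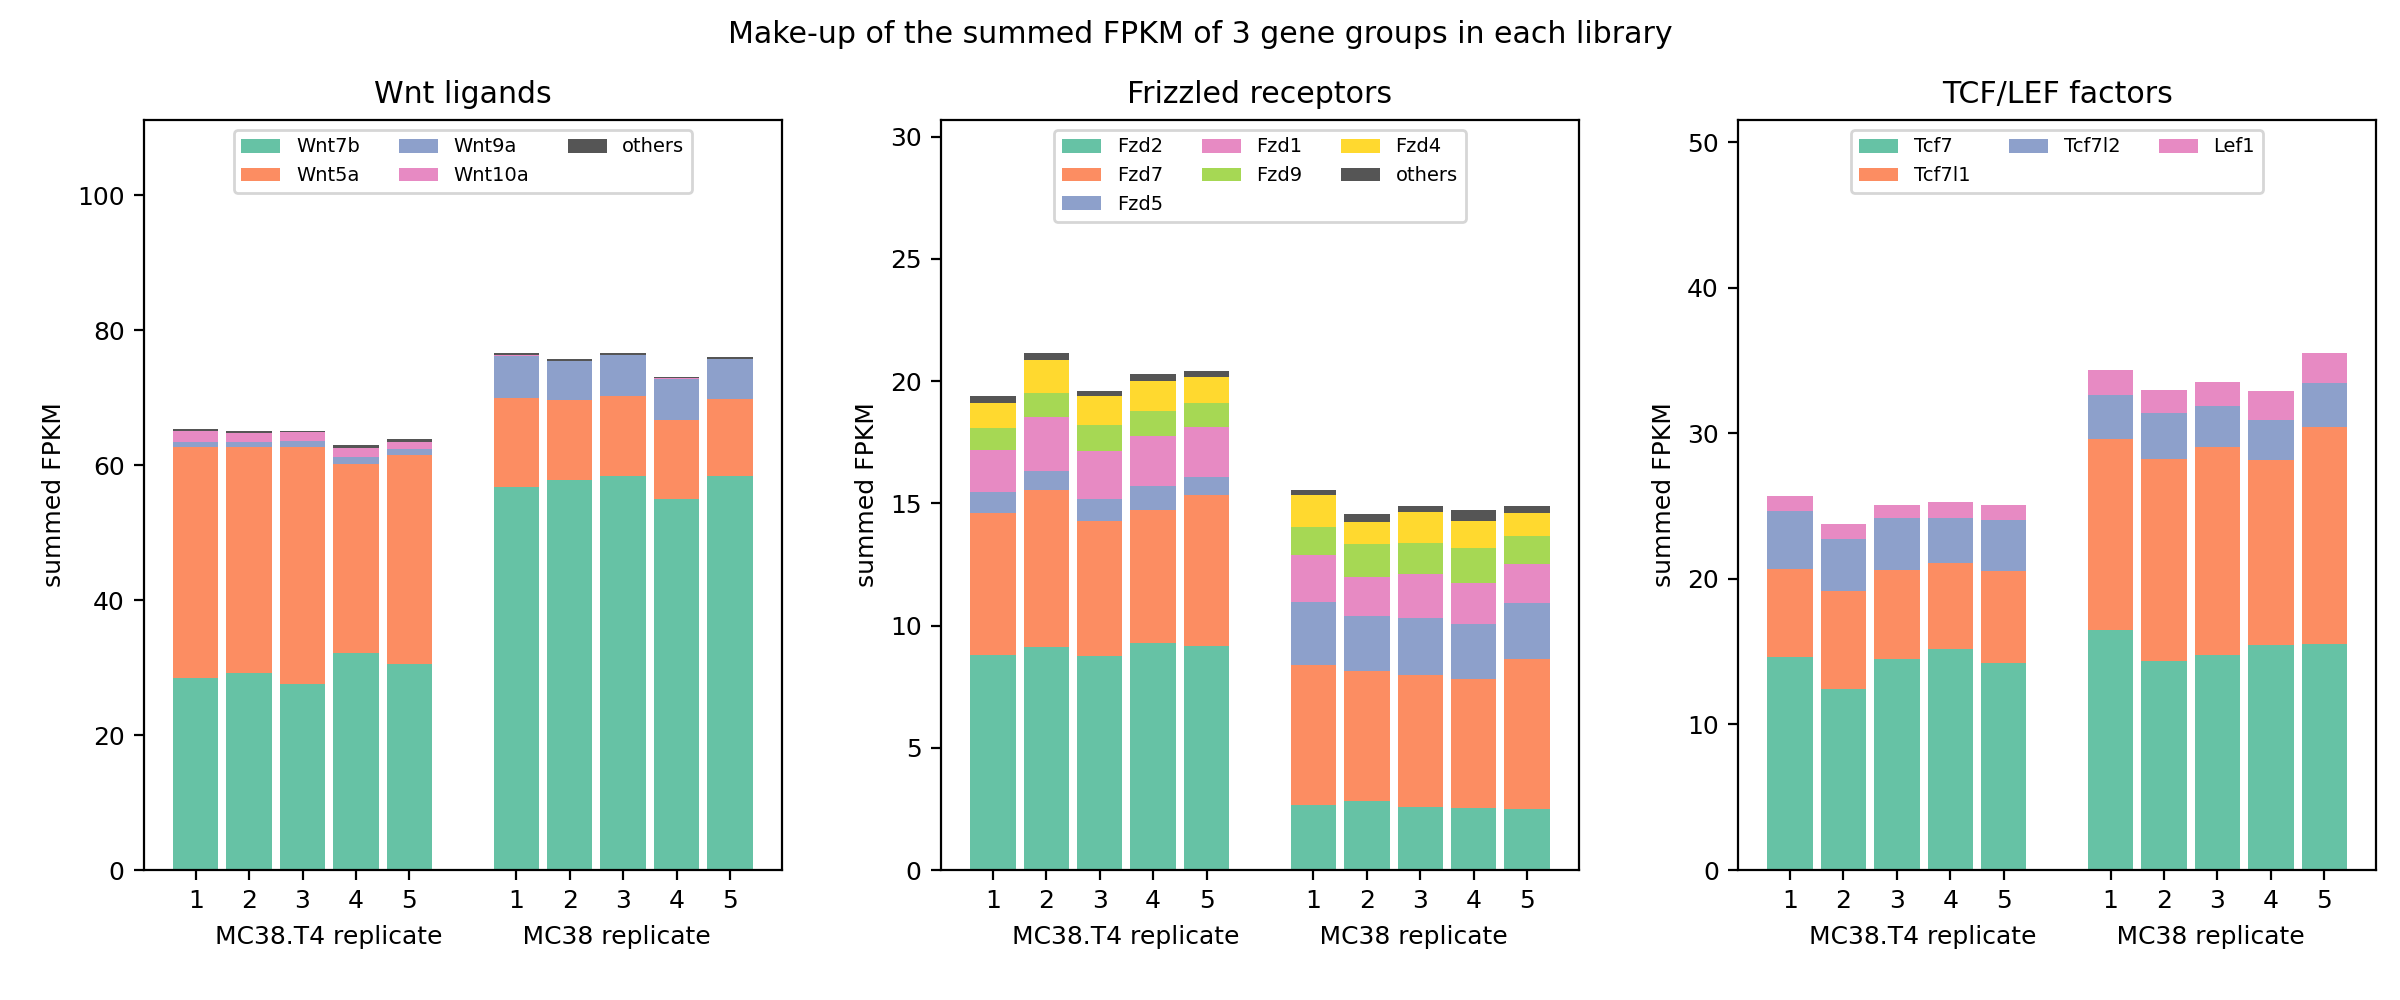
Stacked bars of the summed FPKM of the Wnt ligands, the Frizzled receptors and the TCF/LEF factors in each library, MC38.T4 left of MC38, with a colour for each gene. Wnt5a takes 44.6% to 54.0% of the ligand sum in MC38.T4 and 14.9% to 17.1% in MC38, and Fzd2 leads the receptor sum in MC38.T4.

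The co-receptors differed less. Lrp5 stood at 24.6, 22.0, 23.5, 24.4 and 24.3 FPKM in the MC38.T4 libraries and 19.9, 18.0, 18.9, 17.7 and 18.9 FPKM in the MC38 libraries. All MC38.T4 libraries were higher, and the mean was 1.27-fold higher (log2 change 0.33, SE 0.04, limma adjusted p = 1.87e-06). Lrp6, the other co-receptor of canonical signalling, stood at 13.36, 13.59, 13.47, 12.98 and 14.21 FPKM in the MC38.T4 libraries and 14.94, 10.29, 11.41, 12.40 and 10.89 FPKM in the MC38 libraries. MC38 replicate 1 was above every MC38.T4 library, and the difference (log2 change 0.17, SE 0.07, limma adjusted p = 0.0444) was lost in 13 of 18 alternatives, with adjusted p between 0.000184 and 0.197. Leaving out any 1 library other than MC38 replicate 1 lost the call (limma adjusted p between 0.0507 and 0.115). Without MC38 replicate 1 the log2 change was 0.25 (limma adjusted p = 0.000184).

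Secreted antagonists were scarce in both lines. Of the 8 Dickkopf and Sfrp genes only Dkk2, which binds LRP5 and LRP6, reached the filter. Dkk2 stood at 0.800, 0.767, 0.907, 0.825 and 0.807 FPKM in the MC38.T4 libraries and 2.05, 1.83, 1.82, 1.93 and 1.87 FPKM in the MC38 libraries. It was 2.31-fold lower in MC38.T4, without overlap (log2 change -0.67, SE 0.04, limma adjusted p = 1.08e-09). Like Fzd5, it reached 1 FPKM in MC38 libraries alone and could be tested only because the lines differ. Dkk3, a divergent member of the Dickkopf family, had 0.106, 0.115, 0.0593, 0.0884 and 0.0698 FPKM in MC38.T4 and was listed at 0 in all 5 MC38 libraries. Dkk4 was at 0 in every library, and Dkk1, Sfrp1, Sfrp2, Sfrp4 and Sfrp5 had means of at most 0.0305 FPKM in either line. From the wider list, Wif1, Sostdc1 and Notum were at 0 in every library, and Kremen1, a receptor for Dickkopf proteins, was lower in MC38.T4, at 10.4 ± 0.209 FPKM in MC38.T4 and 12.7 ± 0.542 FPKM in MC38 (limma adjusted p = 9.77e-06).

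R-spondins raise Frizzled levels by binding Lgr receptors and drawing off the ubiquitin ligases ZNRF3 and RNF43, which otherwise remove Frizzled from the cell surface. Lgr4, the widely expressed receptor of the group, stood at 3.97, 4.37, 4.36, 3.53 and 3.95 FPKM in the MC38.T4 libraries and 5.82, 5.44, 5.52, 5.19 and 5.16 FPKM in the MC38 libraries. It was 1.34-fold lower in MC38.T4 (log2 change -0.35, SE 0.05, limma adjusted p = 1.48e-05) with no overlap. Lgr6 lay below the filter, at 0.193, 0.185, 0.274, 0.179 and 0.198 FPKM in the MC38.T4 libraries and 0.120, 0.104, 0.114, 0.162 and 0.117 FPKM in the MC38 libraries, which do not overlap. Lgr5, the marker of crypt stem cells, was at 0 in 4 MC38.T4 libraries and 3 MC38 libraries, and its highest value in any library, MC38.T4 replicate 4, was 0.0126 FPKM. Of the ligands, Rspo3 had 0.0384, 0.0295, 0, 0.0385 and 0.0380 FPKM in the MC38.T4 libraries and 0.135, 0.0987, 0.104, 0.176 and 0.107 FPKM in the MC38 libraries, lower in MC38.T4 with no overlap. Rspo1, Rspo2 and Rspo4 stayed below 0.1 FPKM in every library.

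The 2 ligases were of very unequal level, and Znrf3 fell. Znrf3 stood at 2.79, 3.17, 3.19, 3.09 and 3.07 FPKM in the MC38.T4 libraries and 11.2, 8.41, 9.39, 8.89 and 8.97 FPKM in the MC38 libraries. Every MC38.T4 library was lower, 3.06-fold lower on average (log2 change -1.35, SE 0.06, limma adjusted p = 1.58e-11), and MC38 replicate 1 was again the highest of its line. Rnf43, which lay below the filter, had 0.420, 0.396, 0.305, 0.368 and 0.327 FPKM in the MC38.T4 libraries and 0.0707, 0.0343, 0.0803, 0.0649 and 0.0767 FPKM in the MC38 libraries. Its mean in MC38.T4 was 5.56 times that in MC38, and no libraries overlapped (two-sided exact permutation p = 0.00794, the smallest this test can give). In the fit without the filter its limma adjusted p was 1.11e-06. The ratio of Znrf3 to Rnf43 was therefore 6.65 to 10.5 in MC38.T4 and 117 to 245 in MC38.

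**Figure D3:**
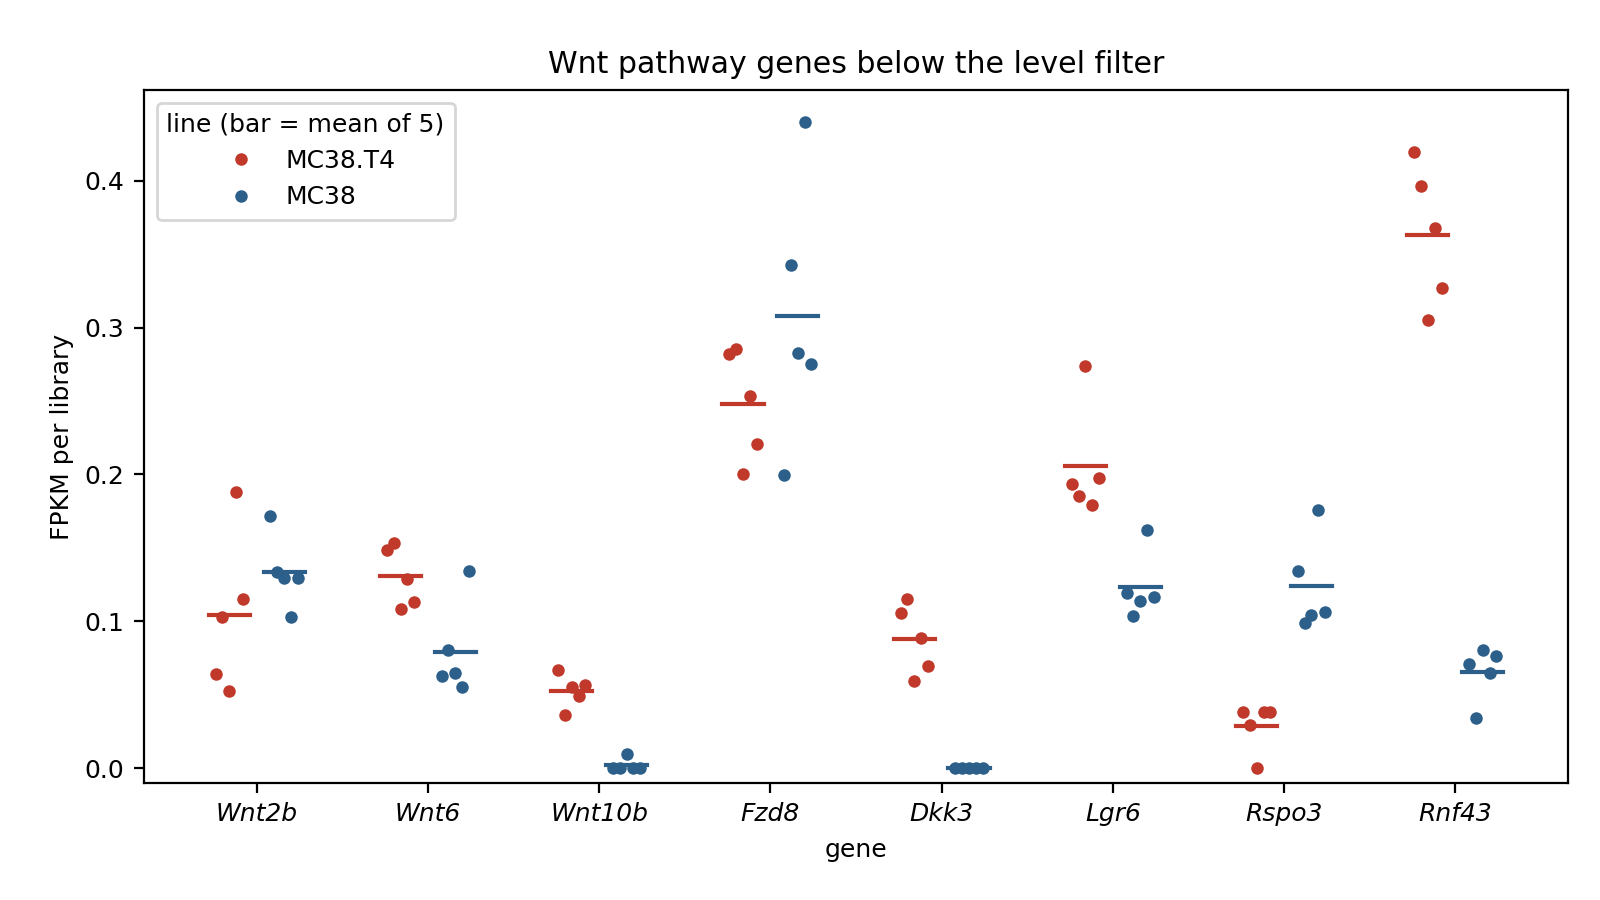
FPKM per library of the 8 Wnt genes below the filter that have a mean of at least 0.1 FPKM in a line or no overlap between the lines, MC38.T4 left of MC38 for each gene, with a bar at the mean of 5. Wnt10b, Dkk3, Lgr6 and Rnf43 are higher and Rspo3 is lower in every MC38.T4 library, and Wnt2b, Wnt6 and Fzd8 overlap.

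The remaining 25 of the 33 members below the filter were at 0 in all 10 libraries in 6 cases (Wnt2, Wnt3a, Wnt11, Fzd3, Fzd10 and Dkk4) and otherwise no higher than 0.0958 FPKM in any library. With no filter, 52 Wnt genes could be fitted, of which 14 were called higher and 12 lower. Of all 26597 genes fitted this way 6812 were higher and 5913 lower, so that the share called is near that of the table. Leaving out the filter added Wnt6, Wnt10b, Dkk3, Lgr6, Rspo4 and Rnf43 to the rises and Rspo3 to the falls. None of these had a mean above 0.363 FPKM in a line, and the calls of Fzd1 and Lrp6 were lost.

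The destruction complex and beta-catenin were expressed at moderate to high levels, with small changes apart from Axin2. Ctnnb1, which encodes beta-catenin, stood at 85.6, 83.0, 83.4, 84.2 and 83.9 FPKM in the MC38.T4 libraries and 70.2, 66.3, 69.1, 66.5 and 66.5 FPKM in the MC38 libraries. The lines did not overlap, and the mean was 1.24-fold higher in MC38.T4 (log2 change 0.31, SE 0.03, limma adjusted p = 1.02e-07). Axin1, the scaffold of the complex, was lower, at 38.0 ± 1.43 FPKM in MC38.T4 and 44.9 ± 1.14 FPKM in MC38 (log2 change -0.23, SE 0.03, limma adjusted p = 1.09e-05). Gsk3b, a kinase that marks beta-catenin, stood at 16.8, 16.6, 15.7, 17.2 and 15.9 FPKM in the MC38.T4 libraries and 29.8, 21.0, 21.9, 22.9 and 21.3 FPKM in the MC38 libraries. It was lower in every MC38.T4 library (log2 change -0.47, SE 0.08, limma adjusted p = 6.15e-05), with MC38 replicate 1 far above the other MC38 libraries. Without that library the log2 change was -0.39 (limma adjusted p = 1.86e-07). Its paralog Gsk3a, not a member, was higher, at 38.8 FPKM in MC38.T4 and 35.0 FPKM in MC38 (limma adjusted p = 0.000717).

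Apc, the tumour suppressor most often lost in colon carcinoma, did not pass the test, at 9.68 ± 0.246 FPKM in MC38.T4 and 10.3 ± 1.55 FPKM in MC38 (log2 change -0.08, SE 0.07, limma adjusted p = 0.328, n = 5 each). Its values were 10.1, 9.77, 9.42, 9.52 and 9.64 FPKM in the MC38.T4 libraries and 12.9, 9.04, 10.1, 10.3 and 9.29 FPKM in the MC38 libraries. The highest of the 10 was MC38 replicate 1, without which the log2 change was 0.00. Over the 25 tested Wnt genes this library was the highest of its line for 14, and any part of its lower sum of FPKM in this was not tested.

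Axin2, the feedback inhibitor widely used as a readout of beta-catenin activity, stood at 1.04, 1.10, 1.10, 1.13 and 1.01 FPKM in the MC38.T4 libraries and 0.414, 0.507, 0.528, 0.481 and 0.416 FPKM in the MC38 libraries. It was 2.29-fold higher in MC38.T4 and did not overlap (log2 change 0.50, SE 0.04, limma adjusted p = 4.07e-08), but its level of about 1 FPKM was far below that of Axin1. Axin2 reached 1 FPKM in MC38.T4 libraries alone and so could be tested only because the lines differ. The other members known as target or feedback genes did not move as a block. Beside Axin2, Sox9 and the low Rnf43 were higher in MC38.T4, Znrf3 and Lef1 were lower, Tcf7 did not pass, and Lgr5 was near 0 in both lines.

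Among the TCF/LEF factors, through which beta-catenin acts on DNA, Tcf7l1 and Lef1 fell and Tcf7l2 rose slightly. Tcf7l1, which mostly represses target genes, stood at 6.06, 6.73, 6.11, 5.95 and 6.32 FPKM in the MC38.T4 libraries and 13.1, 13.9, 14.3, 12.7 and 14.9 FPKM in the MC38 libraries. Every MC38.T4 library was below every MC38 library, 2.21-fold lower on average (log2 change -1.03, SE 0.05, limma adjusted p = 1.38e-11). Lef1, which mostly activates, stood at 1.04, 1.02, 0.830, 1.11 and 1.02 FPKM in the MC38.T4 libraries and 1.74, 1.57, 1.68, 1.95 and 2.06 FPKM in the MC38 libraries. It was 1.79-fold lower in MC38.T4 (log2 change -0.48, SE 0.06, limma adjusted p = 1.37e-06), again with no overlap.

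Tcf7, the most abundant factor of the family in both lines, stood at 14.6, 12.4, 14.5, 15.2 and 14.2 FPKM in the MC38.T4 libraries and 16.5, 14.4, 14.8, 15.4 and 15.5 FPKM in the MC38 libraries. The groups overlapped and the difference missed the threshold (log2 change -0.10, SE 0.05, limma adjusted p = 0.07). It was called lower in 5 of 18 alternatives, with adjusted p between 0.0278 and 0.21, among them without MC38.T4 replicate 4 (0.0365) and without MC38 replicate 2 (0.0399). Tcf7l2, the main factor of the intestinal epithelium, averaged 3.55 ± 0.354 FPKM in MC38.T4 and 2.96 ± 0.173 FPKM in MC38 (log2 change 0.20, SE 0.06, limma adjusted p = 0.00511). Its libraries overlapped, and with quantile normalization the call was lost (limma adjusted p = 0.305, the highest of 17 alternatives, of which the lowest was 0.000649). The summed level of the 4 factors was 25.0 ± 0.724 FPKM in MC38.T4 and 33.9 ± 1.11 FPKM in MC38 (mean ± SD, n = 5 each), and the ratio of Tcf7 to Tcf7l1 was 1.84 to 2.55 in MC38.T4 and 1.03 to 1.25 in MC38.

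Sox9, a transcription factor of crypt progenitors and cartilage, stood at 17.9, 16.5, 16.3, 14.1 and 16.2 FPKM in the MC38.T4 libraries and 5.63, 6.33, 6.20, 6.02 and 6.10 FPKM in the MC38 libraries. The lowest MC38.T4 library, replicate 4, was more than double the highest MC38 library, and the mean was 2.68-fold higher (log2 change 1.28, SE 0.05, limma adjusted p = 4.51e-12).

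**Figure D4:**
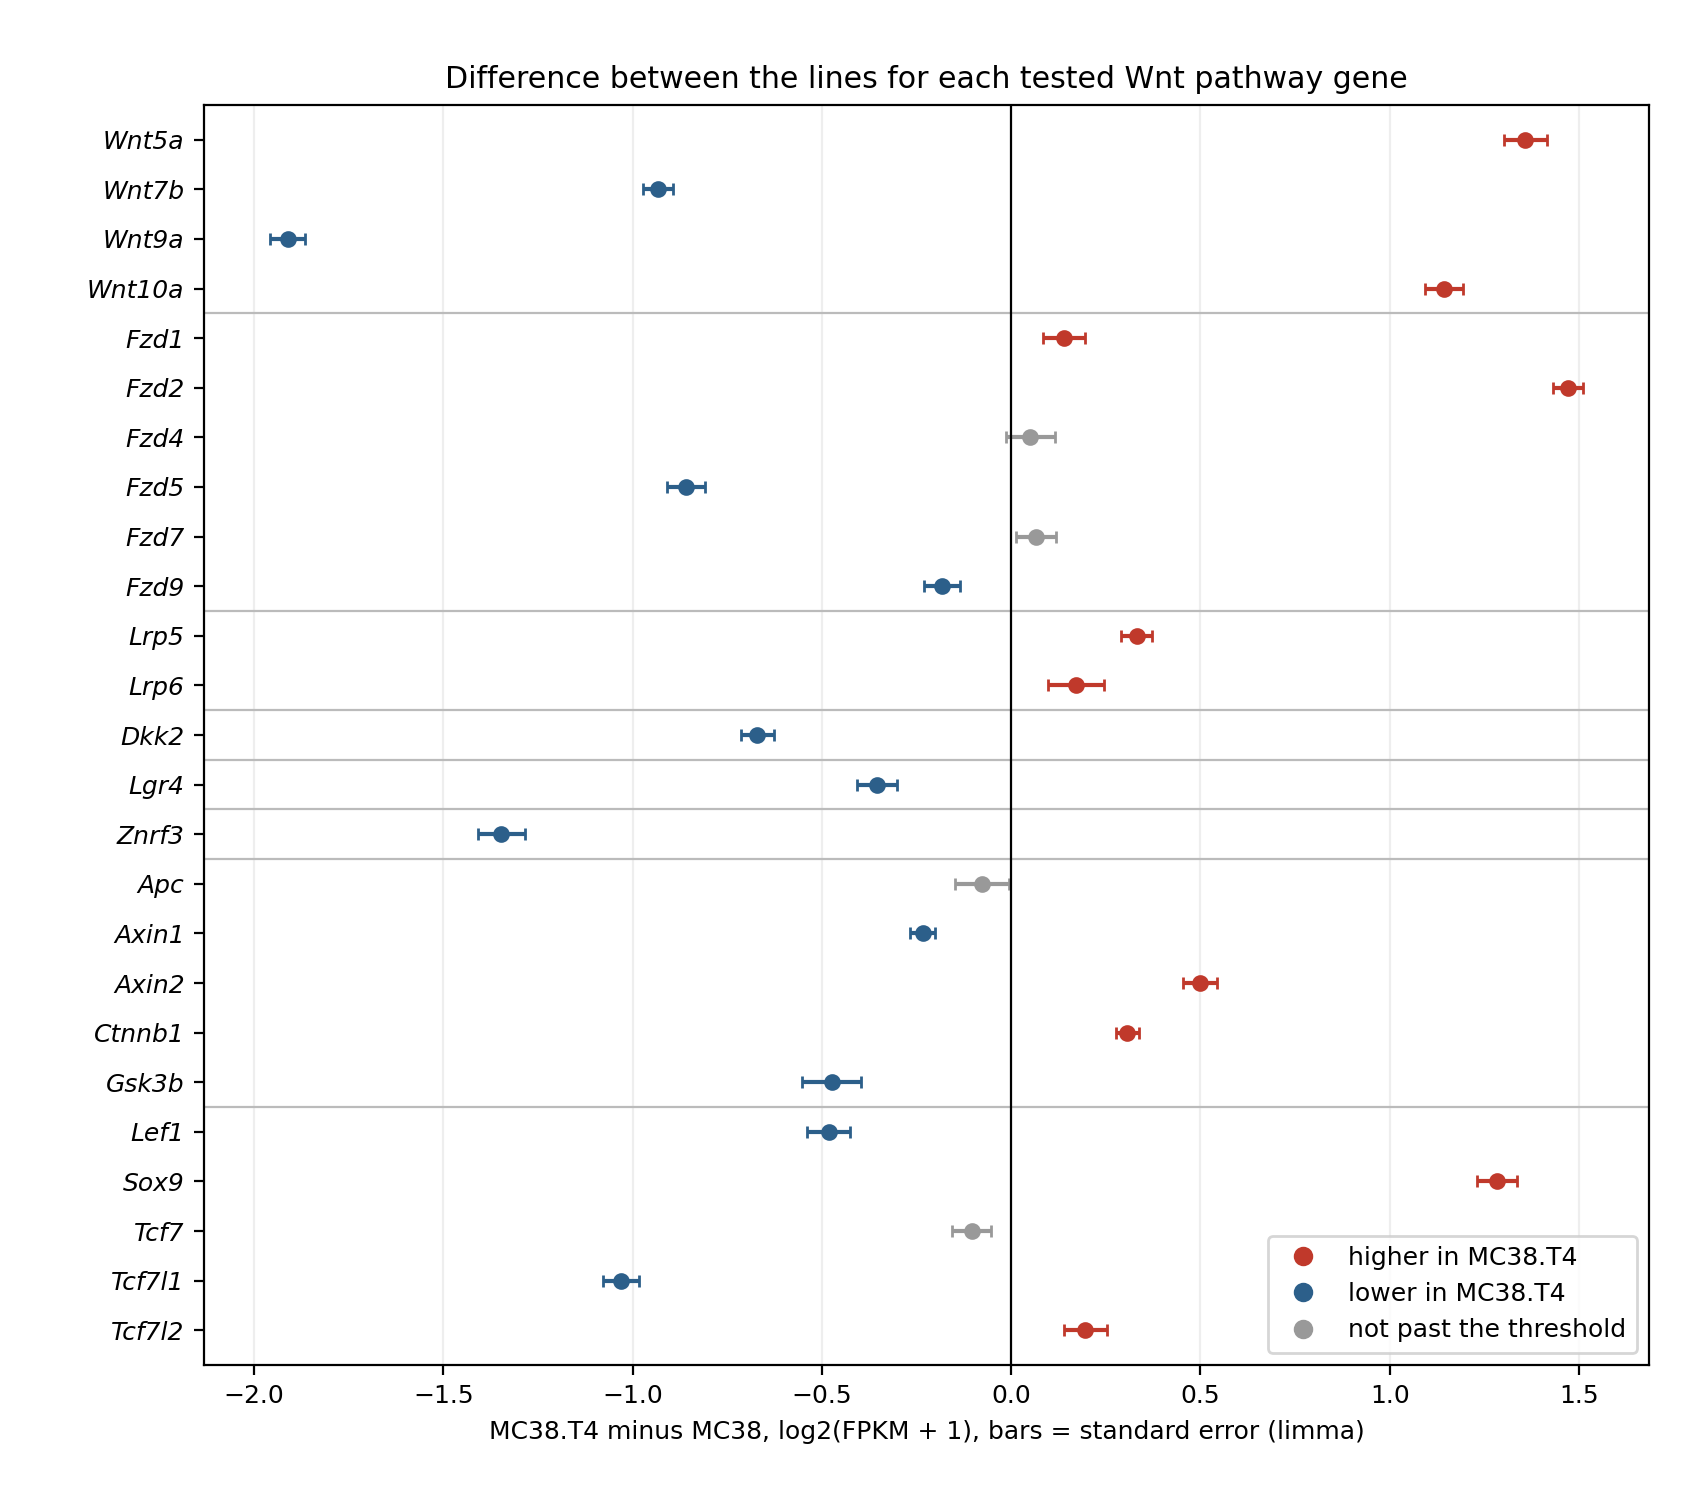
Log2 change of the 25 tested Wnt genes, MC38.T4 minus MC38, taken on log2(FPKM + 1), with bars for the standard error from limma and lines between role groups. Fzd2 (1.47), Wnt5a (1.36) and Sox9 (1.28) have the largest positive values and Wnt9a (-1.91) and Znrf3 (-1.35) the largest negative ones.

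The wider pathway was followed with 5 further lists, 97 genes in all and none of them a member. Of these 62 were tested, of which 34 were higher and 21 lower in MC38.T4 and 7 did not pass, with a median log2 change of 0.15, beside 0.00 over all tested genes. This is 88.7% called, 54.8% higher and 33.9% lower, beside 86.0%, 43.1% and 42.9% of all tested genes, so that the share called is near that of the table. Prickle1 and Tle2, both among the higher genes, reached 1 FPKM in MC38.T4 alone. In the list for secretion and extracellular handling 4 of 16 genes were tested and all were called, 2 higher and 2 lower. Wls, which carries Wnt proteins to the cell surface, was higher, at 85.1 ± 3.03 FPKM in MC38.T4 and 59.5 ± 1.64 FPKM in MC38 (log2 change 0.51, SE 0.03, limma adjusted p = 1.21e-09). Porcn, the enzyme that attaches the lipid to Wnt proteins, lay below the filter at 0.746 FPKM in MC38.T4 and 0.248 FPKM in MC38. Apcdd1, a membrane inhibitor of Wnt signalling, was higher, at 21.8 FPKM in MC38.T4, against 2.75 FPKM in MC38 (log2 change 2.61, SE 0.04, limma adjusted p = 2.15e-16). The heparan sulfate proteoglycan gene Gpc4 was lower, at 36.9 FPKM in MC38.T4 and 58.0 FPKM in MC38 (log2 change -0.64).

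In the list for the cytoplasmic relay 17 of 21 genes were tested. Of these 6 were higher, 7 were lower and 4 did not pass, with a median log2 change of -0.06. The share called was 76.5%, with 35.3% higher and 41.2% lower, beside 86.0%, 43.1% and 42.9% of all tested genes. Csnk1a1, the priming kinase of the destruction complex, was higher, at 147 FPKM in MC38.T4 and 98.2 FPKM in MC38, as were the Dishevelled gene Dvl1 (23.1 FPKM in MC38.T4 and 17.2 FPKM in MC38) and Dact3, an antagonist of Dishevelled (2.80 FPKM in MC38.T4 and 1.03 FPKM in MC38). Fbxw11, a subunit of the ubiquitin ligase for beta-catenin, was lower, at 39.9 FPKM in MC38.T4 and 66.0 FPKM in MC38. Usp34, a deubiquitinase that acts on Axin, was also lower (21.1 FPKM in MC38.T4 and 37.5 FPKM in MC38), as was the casein kinase gene Csnk1g1 (8.10 FPKM in MC38.T4 and 13.4 FPKM in MC38). The limma adjusted p of these 6 was at most 4.18e-07 (Usp34). Btrc, the paralog of Fbxw11, was higher, at 16.6 FPKM in MC38.T4 and 12.9 FPKM in MC38 (limma adjusted p = 2.13e-06).

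In the list of nuclear co-factors 21 of 22 genes were tested, of which 12 were higher, among them Tle2 through MC38.T4 alone, 7 were lower and 2 did not pass, with a median log2 change of 0.14. The share called was 90.5%, with 57.1% higher and 33.3% lower, beside 86.0%, 43.1% and 42.9% of all tested genes. It holds Ssbp4, the gene of the series title, which with Ldb1 and the Bcl9 and Pygo adaptors belongs to a complex that links beta-catenin to enhancers, as described in flies and human cells. Ssbp4 averaged 27.9 ± 2.02 FPKM in MC38.T4 and 4.84 ± 0.652 FPKM in MC38. Ldb1 averaged 49.4 ± 2.63 FPKM in MC38.T4 and 31.1 ± 2.23 FPKM in MC38, Bcl9 6.17 ± 0.376 FPKM in MC38.T4 and 4.53 ± 0.291 FPKM in MC38 and Pygo2 28.9 ± 0.807 FPKM in MC38.T4 and 26.0 ± 0.776 FPKM in MC38 (SD, n = 5 each). These 4 were higher in every MC38.T4 library, by 0.14 (Pygo2) to 2.31 (Ssbp4) on the log2 scale, and their limma adjusted p was at most 0.000894. Among all tested genes 77.4% had no overlap between the lines. Of their paralogs, Bcl9l was higher too (10.5 FPKM in MC38.T4 and 7.32 FPKM in MC38). Ssbp3 did not pass (18.0 FPKM in MC38.T4 and 17.7 FPKM in MC38, limma adjusted p = 0.646), and Pygo1 was at 0 in every library. Ssbp2 was also higher (18.9 FPKM in MC38.T4 and 9.93 FPKM in MC38), as was the histone deacetylase gene Hdac1 (139.8 FPKM in MC38.T4 and 48.3 FPKM in MC38, log2 change 1.51). Lower in MC38.T4 were the acetyltransferase genes Crebbp (5.17 FPKM in MC38.T4 and 10.9 FPKM in MC38) and Ep300 (13.5 FPKM in MC38.T4 and 26.3 FPKM in MC38), both co-activators of beta-catenin, and the Groucho-type co-repressor gene Tle4 (3.46 FPKM in MC38.T4 and 7.33 FPKM in MC38). The limma adjusted p of these last 5 was at most 8.03e-10 (Crebbp).

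In the list of other Wnt receptors and planar polarity genes 9 of 18 were tested, of which 7 were higher, 1 was lower and 1 did not pass, with a median log2 change of 0.42. The share called was 88.9%, with 77.8% higher and 11.1% lower, beside 86.0%, 43.1% and 42.9% of all tested genes. Prickle1, one of the 7, passed the filter through MC38.T4 alone. Most of the list belongs to branches without beta-catenin, but Adgra2 and Reck, also among the 7, assist Wnt7 signals that run through beta-catenin. The planar polarity genes Vangl1 and Vangl2, which encode paralogous membrane proteins, went opposite ways. Vangl1 averaged 17.6 ± 0.902 FPKM in MC38.T4 and 7.05 ± 0.467 FPKM in MC38 and Vangl2 1.33 ± 0.113 FPKM in MC38.T4 and 2.63 ± 0.0883 FPKM in MC38 (limma adjusted p at most 3.29e-09, n = 5 each). Adgra2, an adhesion receptor known as Gpr124 that works with Reck in brain endothelium, was higher, at 22.8 ± 0.872 FPKM in MC38.T4 and 8.74 ± 0.456 FPKM in MC38 (log2 change 1.29, SE 0.04, limma adjusted p = 2.27e-13). Invs, which encodes inversin, was higher, at 4.23 FPKM in MC38.T4 and 1.80 FPKM in MC38. Ror2, a receptor for Wnt5a, had a mean of 0.00414 FPKM in MC38.T4 and was listed at 0 in MC38, and Ror1 averaged 0.125 FPKM in MC38.T4 and 0.197 FPKM in MC38.

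In the list of reported target genes 11 of 22 were tested, of which 7 were higher and 4 were lower (63.6% and 36.4%, beside 43.1% and 42.9% of all tested genes), with a median log2 change of 0.40. All 11 were called, beside 86.0% of all tested genes. Myc, a target of beta-catenin in the colon, was lower, at 57.7 ± 9.24 FPKM in MC38.T4 and 302 ± 12.8 FPKM in MC38, 5.23-fold lower on average (log2 change -2.38, SE 0.08, limma adjusted p = 2.75e-11). Ccnd1, cyclin D1, was higher, at 239 ± 4.87 FPKM in MC38.T4 and 203 ± 3.81 FPKM in MC38 (log2 change 0.23, SE 0.03, limma adjusted p = 3.28e-06). Ccn4, formerly Wisp1, was at 10.8 FPKM in MC38.T4 and 4.25 FPKM in MC38, Ephb2 at 6.82 FPKM in MC38.T4 and 3.08 FPKM in MC38 and Met at 37.0 FPKM in MC38.T4 and 20.2 FPKM in MC38, all higher in MC38.T4. Cd44 was lower, at 156 FPKM in MC38.T4 and 241 FPKM in MC38, as was Fosl1, at 79.0 FPKM in MC38.T4 and 130.3 FPKM in MC38 (limma adjusted p at most 3.8e-08 for these 5). Sp5, Notum, Prox1, Bmp4, Mmp7 and Tnfrsf11b were at 0 in every library, and Nkd1 averaged 0.0388 FPKM in MC38.T4 and was listed at 0 in MC38.

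**Figure D5:**
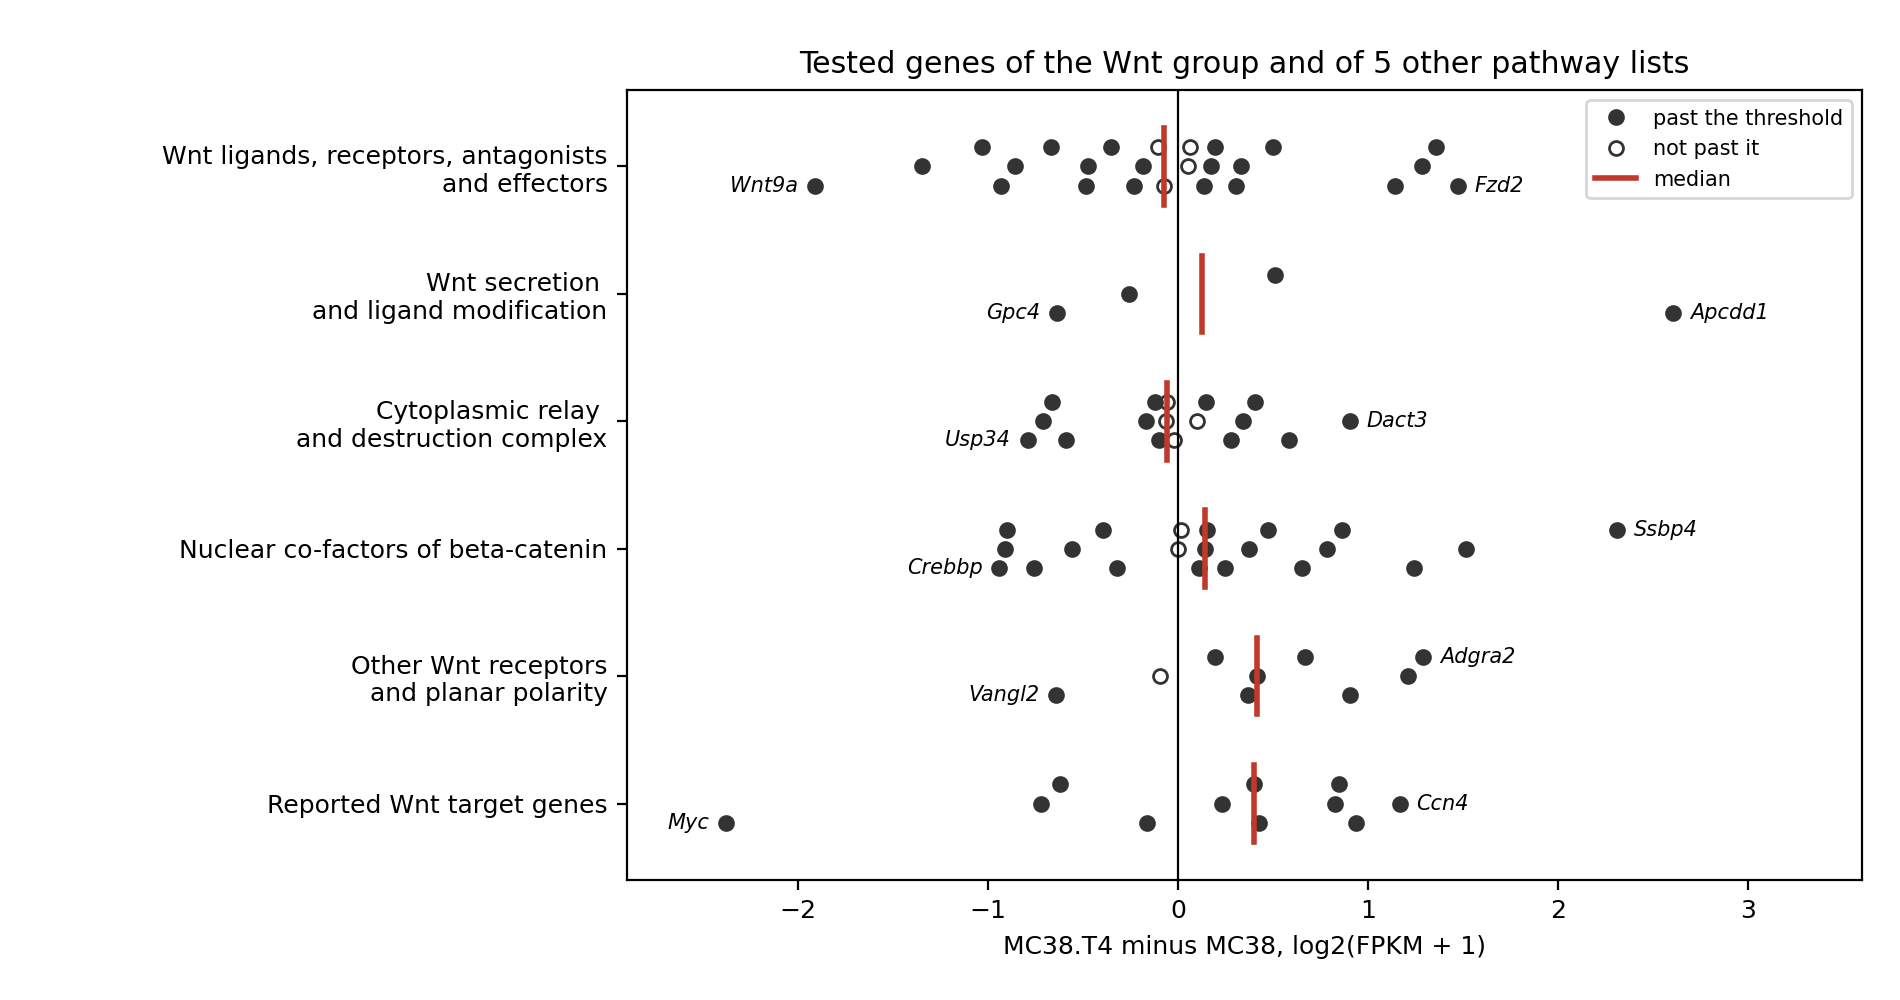
Log2 change, MC38.T4 minus MC38, of the tested genes in the Wnt group and in 5 other pathway lists, with filled points for genes past the threshold, open points for the others and a red bar at each median. The medians lie between -0.08 and 0.42, and Ssbp4, Apcdd1 and Myc stand at the ends of their lists.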

How the data were processed

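Polyadenylated RNA of 2 mouse cell lines, 5 libraries each, was prepared with a stranded TruSeq kit, per the labels' protocols. The authors deposited 1 table of FPKM, a row per gene symbol and a column per library, and columns were matched to samples by the library names in the labels. The submitters' processing notes name GRCm39 and DESeq2. The aligner, counting program, annotation, filters, depth and treatment of reads shared by close relatives were not given in the sources used here. Since these are not counts, no count model was used.

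The whole table was fitted with limma 3.58.1 in R 4.3.3 on log2(FPKM + 1) for genes with at least 1 FPKM in at least 5 libraries, with a group term, trend and robust moderation, two-sided, and a Benjamini-Hochberg threshold of 0.05. For single genes, all 252 ways of assigning 5 libraries to MC38.T4 gave an exact permutation p. The code was tested on simulated data. Python 3.11.15, pandas 2.3.3, NumPy 2.4.6 and matplotlib 3.10.9 handled tables and figures. Every tested member was named. From the other lists, the 3 largest rises and falls with a mean of at least 2 FPKM and a few fixed genes were named, and others only beside a count or a paralog. Members, lists and rules were chosen with earlier results of these data known. All 97 other pathway symbols were found in the table. The fit was repeated with a pseudocount of 0.1, with no filter or a minimum of 5 FPKM, after rescaling to TPM or quantile normalization, with plain eBayes, with a replicate block, without each library in turn and, added later, leaving out MC38 replicate 1 together with MC38.T4 replicate 4.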

Additional observations from a re-analysis of the deposited data

Results flagged for a closer look

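Among 50 sets of 5 libraries (25 tested Wnt genes in 2 lines), 2 held a library far from the other 4, by a gap over 0.71 of the range of the set. Chance alone gives this in about 5% of sets. Both were MC38 replicate 1. Fzd5 stood at 2.56 FPKM there, against 2.26 to 2.31 FPKM in the other MC38 libraries, and Gsk3b at 29.8 FPKM, against 21.0 to 22.9 FPKM. Both genes were also called lower in MC38.T4 without that library (limma adjusted p = 8.45e-10 for Fzd5 and 1.86e-07 for Gsk3b).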

How the results depend on the processing

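Under 18 alternatives the direction of all 21 called Wnt genes was kept wherever they were fitted. For 18 of them the call also held in every alternative, and for Fzd1, Lrp6 and Tcf7l2 it did not. With a minimum of 5 FPKM 16 Wnt genes were tested, of which 6 were higher and 7 lower, fewer because low genes drop out. The counts ranged from 6 to 14 higher and from 7 to 12 lower over all alternatives, and from 8 to 10 and from 11 to 12 when each library was left out. Without MC38 replicate 1 and MC38.T4 replicate 4, an alternative chosen after seeing the data, they were 10 and 11. The pathway lists gave 29 to 39 higher and 20 to 24 lower. Same-numbered libraries of the lines did not deviate together (correlations -0.129 to 0.142 over the tested genes). The values thus show no strong pairing by number, though they cannot exclude that such libraries were prepared together. With the replicate number as a block the counts were 9 higher and 12 lower among the Wnt genes and 34 and 21 in the pathway lists. Depth is unknown, so values near 0 carry no counting error, and the pseudocount of 1 FPKM shrinks changes below about 1 FPKM.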

Other observations

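The Groucho-type co-repressors, which sit on TCF/LEF factors in the absence of beta-catenin, were singled out after their values were seen. All 5 Tle genes of the co-factor list were called, Tle2 and Tle5 higher and Tle1, Tle3 and Tle4 lower in MC38.T4, beside 86.0% of all tested genes called, so that the count itself is near that of the table. Tle2 had 1.42, 1.72, 1.89, 1.89 and 1.61 FPKM in the MC38.T4 libraries and 0.161, 0.0907, 0.127, 0.166 and 0.157 FPKM in the MC38 libraries, without overlap, and passed the filter through MC38.T4 alone. Tle5, a short member that lacks the repressor's C-terminal part, averaged 166 ± 4.99 FPKM in MC38.T4 and 149 ± 6.94 FPKM in MC38. Tle1 was lower in MC38.T4, at 16.6 ± 0.236 FPKM in MC38.T4 and 22.2 ± 0.842 FPKM in MC38, as was Tle3, at 15.8 ± 0.679 FPKM in MC38.T4 and 27.4 ± 1.68 FPKM in MC38 (SD, n = 5 each). Limma adjusted p for these 4 was at most 0.00144, with a log2 change between -0.76 (Tle3) and 1.24 (Tle2).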
